A study of Mus musculus with 4 samples.

Results

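Megalin and its relatives are receptors of the low density lipoprotein (LDL) receptor family. The 8 genes Lrp1, Lrp2, Lrp4, Lrp5, Lrp6, Lrp8, Vldlr and Cubn were taken by their gene name on the array, with every probe of each kept, out of 27745 names on it. They are read by 16 of the 41174 probes that are not controls. Lrp2 encodes megalin, and Cubn encodes cubilin, a peripheral membrane protein that works with megalin but is not itself built like an LDL receptor. The set was selected on measured values, the log2 ratios of hypomorph over wild type on these same arrays, where Lrp2 was among the lowest genes. All ratios of the 8 genes between the genotypes are therefore given as a description, without a test.

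Lungs of Fgf8 hypomorph fetuses (Fgf8H/-) were compared with lungs of wild type fetuses (Fgf8+/+) at E18.5, shortly before birth, both on a c57nl7/sv129 background. The sample titles write AP/N for the hypomorph, letters that the labels do not explain. FGF8 is a secreted growth factor, and a hypomorph makes less of it. Large airways and vessels had been removed from the lobes, and each RNA sample was a pool of 3 lungs of 1 genotype. Each of 4 two-colour Agilent arrays held 1 wild type pool in Cy3 and 1 hypomorph pool in Cy5, so n = 4 pools per genotype, and the dyes were never exchanged. A dye effect on a probe and a genotype effect on it thus cannot be told apart.

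Receptors of this family carry ligand-binding repeats outside the cell, bring lipoproteins, proteases with their inhibitors, and vitamin carriers into the cell, and some also pass signals on. Megalin sits on the apical face of absorptive epithelia, including that of the lung, where it takes up albumin and other proteins together with cubilin. In the kidney both receptors recover filtered vitamins bound to their carriers. Lrp5 and Lrp6 are co-receptors for WNT, Lrp4 binds agrin and WNT inhibitors, and Vldlr and Lrp8 are receptors for reelin.

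The promoters of Lrp2 and Cubn are shown because these genes had the lowest and the highest ratio of the 8. Both run from 250 bases before to 50 bases after the start of the gene in RefSeq's annotation of GRCm38.p6, on the minus strand, at chr2:69585980-69586279 for Lrp2 and chr2:13491827-13492126 for Cubn. Capitals mark the GC box GGGCGG. The CCAAT box and the TATA box, TATAAA, were searched in the same way on both strands.
Lrp2: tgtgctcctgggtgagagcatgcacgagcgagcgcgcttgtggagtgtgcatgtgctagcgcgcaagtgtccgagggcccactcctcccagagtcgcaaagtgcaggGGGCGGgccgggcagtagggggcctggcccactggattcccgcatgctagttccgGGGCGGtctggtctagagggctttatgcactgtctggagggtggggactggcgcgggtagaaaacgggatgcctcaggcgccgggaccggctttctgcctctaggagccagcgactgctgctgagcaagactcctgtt
Cubn: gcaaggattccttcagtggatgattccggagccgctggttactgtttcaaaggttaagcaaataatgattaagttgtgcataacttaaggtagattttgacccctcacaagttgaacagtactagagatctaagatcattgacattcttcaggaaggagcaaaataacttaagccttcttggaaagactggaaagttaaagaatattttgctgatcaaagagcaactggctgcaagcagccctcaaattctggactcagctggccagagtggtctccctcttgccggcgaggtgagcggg

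The Lrp2 promoter held 2 copies of GGGCGG and had a GC content of 65.0%, whereas the Cubn promoter held none of the 3 motifs and had a GC content of 44.3%. GGGCGG occurs in 35.7% of the 32851 RefSeq promoters of this length, CCAAT in 37.4% and TATAAA in 13.6%, and their median GC content is 52.7%. Further motifs searched on both strands were the E-box CACGTG (7.15% of promoters), the shorter ACGTG that it contains (19.6%) and the cyclic AMP response element TGACGTCA (1.79%), and neither promoter held any of them. A promoter was matched for 5 of the 8 genes, namely Lrp1, Lrp2, Lrp8, Vldlr and Cubn.

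Of 43379 spots on each array, 32491 to 33744 exceeded background clearly in the wild type channel and 32731 to 34519 in the hypomorph channel. Fgf8 itself had a log2 ratio of -0.18 ± 0.11 (SD, n = 4) by the probe well above background and did not pass the test (limma, adjusted p = 0.0572). The position of that probe in the altered alleles was not analysed here. Of 30008 probes tested, 24.9% were called at an adjusted p under 0.05, with 3802 higher and 3663 lower in the hypomorph. With median centring of each array in place of loess normalization, 10998 were higher and 3832 lower. All 10 lung epithelial markers, among them Nkx2-1, Sftpc and Ager, were well above background in both genotypes, and of the 6 tested, Nkx2-1 rose and Aqp5 fell (limma, adjusted p = 0.0392 and 0.00135). With median centring 4 of the 6 rose and none fell, and with the processed signals or without replicate 2, 3 or 4 none rose.

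Of the 16 family probes, 15 were tested, and 1 Lrp2 probe was not well above background on any array. Their log2 ratios lay below 0 on all 4 arrays for 10 probes, above 0 on all 4 for 4, and on both sides of 0 for 1. The median was -0.27, against -0.00 for all probes tested. The log2 signals of the 4 hypomorph pools lay wholly below those of the 4 wild type pools for 7 of the 15 probes and wholly above for 1. Over all probes this held for 8.03% and 6.62%, and nothing is read from the members' count, since these ratios were known when the genes were chosen.

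**Figure D1:**
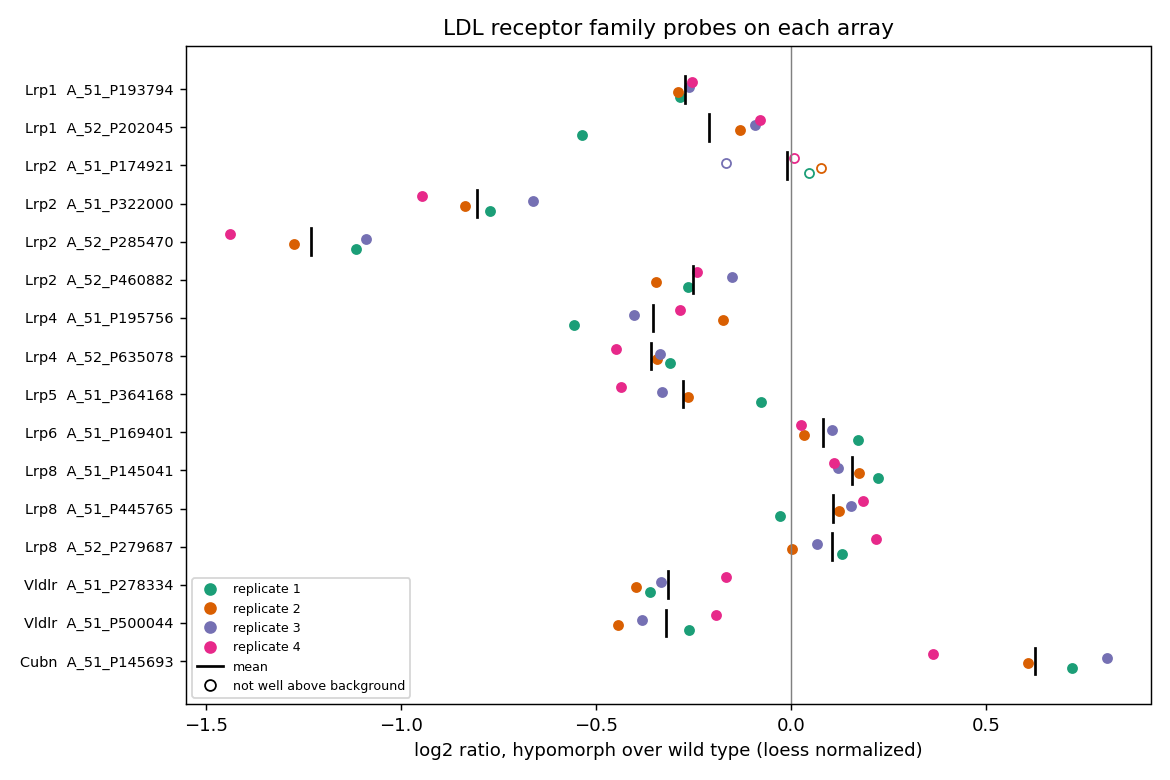
Log2 ratio of hypomorph over wild type for the 16 probes of the 8 genes, with a point for each array and a bar for the mean. The tested Lrp2 probes spread from -1.23 to -0.25, and the Lrp2 probe at -0.01 was not well above background on any array. Cubn lies at 0.63, and the other genes lie between -0.36 and 0.16.

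Lrp2 had the lowest ratio of the family. Its brightest probe, A_52_P285470, lies on chromosome 2 from 69225348 to 69225407 in mouse build mm8, on the minus strand. Feature Extraction's processed signal for it was 2050, 2280, 2215 and 1604 in the wild type pools of replicates 1 to 4 and 984, 919, 1028 and 572 in the hypomorph pools. Every hypomorph pool was thus below every wild type pool, and in both genotypes replicate 4 was the lowest. After loess normalization the log2 ratios were -1.12, -1.27, -1.09 and -1.44, with a mean of -1.23 ± 0.16 (SD, n = 4), which is 2.35-fold lower. Of the 30008 probes tested, 17 had a lower mean.

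The 4 Lrp2 probes did not give one value. From the 5′ to the 3′ side of the gene, the first, A_51_P174921 (69308666 to 69308811), was near background in both genotypes on all 4 arrays, so it gives no ratio to set beside the others. The next, A_52_P460882 (69237574 to 69238311), read -0.26, -0.35, -0.15 and -0.24, with a mean of -0.25 ± 0.08 (n = 4). A_51_P322000 (69226430 to 69226489) read -0.77, -0.84, -0.66 and -0.95, with a mean of -0.80 ± 0.12. All 3 tested probes lay below 0 on 4 of 4 arrays, and the pools of the genotypes did not overlap for any of them.

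The last 2 probes lie 1082 bases apart in the genome, and on 4 of 4 arrays the 3′ one was lower, by a mean difference of 0.43 ± 0.06 in log2. The coordinates of A_52_P460882 cover 738 bases and those of A_51_P174921 cover 146, against 60 for the other Lrp2 probes, so both are split over separate stretches of the genome. Exons in build mm8 were not used here.

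The size of the gap between the probes moved with the processing. The mean log2 brightness of A_52_P460882 was 6.82, against 9.53 and 10.9 for the brighter probes. With Feature Extraction's processed signals, to which no offset is added, A_52_P460882 read -0.73 ± 0.28, A_51_P322000 -0.85 ± 0.18 and A_52_P285470 -1.24 ± 0.20. The range between the 3 probes was then 0.51, against 0.98 with the offset of 50. The brightest probe was the lowest in both cases.

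**Figure D2:**
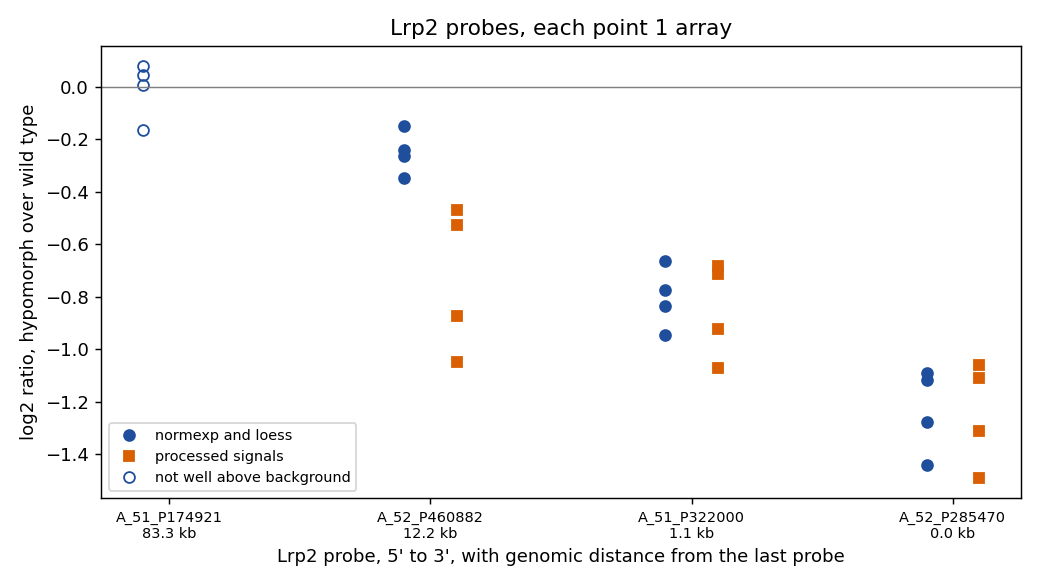
Log2 ratio of hypomorph over wild type for the 4 Lrp2 probes from the 5′ to the 3′ side, with a point for each array, after normexp correction with loess and with the processed signals. The probe 12.2 kb from the last one moves from a mean of -0.25 to -0.73, whereas the last probe stays near -1.23.

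The probes of other genes with the ratios most like those of A_52_P285470 were sought by Euclidean distance over the 4 arrays. Of 27156 probes with values on all of them, those named by an accession, clone or gene model were then passed over. The nearest were Ackr2 (distance 0.20), a decoy receptor for chemokines, and Arg1 (0.24), an arginase. They were followed by the chitinase-like Chil4 (0.31), the adhesion protein gene Amigo2 (0.31) and Ank1 (0.37), an ankyrin. Their mean log2 ratios lay between -1.25 and -1.09. With 4 arrays this describes ratios of like size only.

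Cubn went the other way. Its single probe lies on chromosome 2 from 13194214 to 13194273 in mm8. Its processed signal was 755, 816, 624 and 711 in the wild type pools and 1314, 1234, 1096 and 918 in the hypomorph pools, with no overlap. The log2 ratios were 0.72, 0.61, 0.81 and 0.36, with a mean of 0.63 ± 0.19 (n = 4), which is 1.54-fold higher. It was the highest ratio of the 8 genes, and 150 of the probes tested had a higher mean. Amn, which encodes the anchor of cubilin in the membrane, did not pass the test (0.03 ± 0.20, n = 3, limma, adjusted p = 0.795).

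Over all alternatives the brightest Lrp2 probe lay between -1.28 and -1.03 and Cubn between 0.56 and 0.81. In whole tissue, fewer cells that express a gene and less RNA per cell cannot be told apart.

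**Figure D3:**
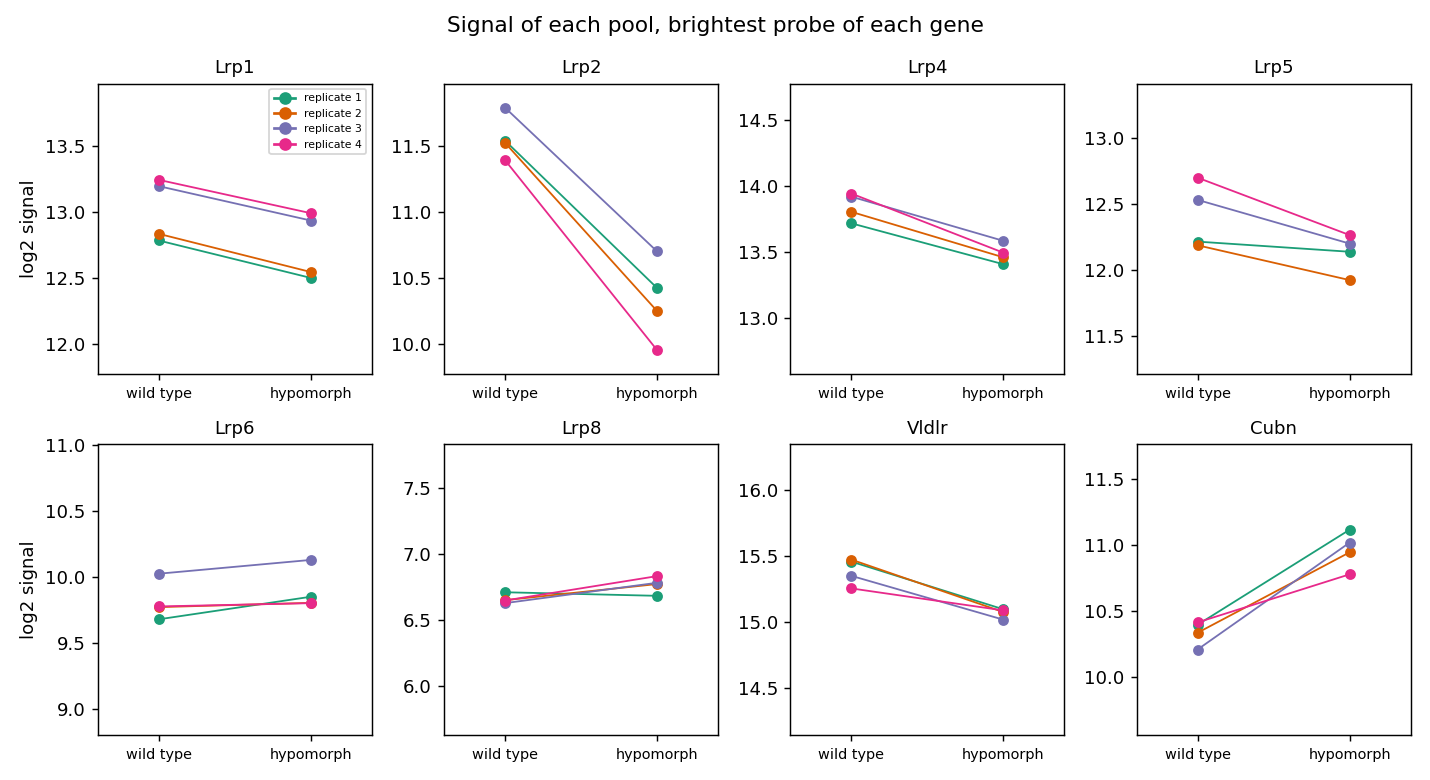
Log2 signal of each wild type and hypomorph pool for the brightest probe of each of the 8 genes, with a line joining the pools of an array. All y axes have the same span in log2 units. Lrp2 drops and Cubn climbs on every array, and on array 4 the drops of Lrp4 and Lrp5, by 0.45 and 0.43, exceed the 0.36 by which Cubn climbs.

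Markers of other cell types were read beside Lrp2. By their brightest probe, 13% of all genes fell and 13.6% rose. Of 9 mesothelial markers, all measured, 7 fell and none rose (limma, adjusted p under 0.05), among them Msln, Lrrn4, Upk1b and Wt1, and the median log2 ratio was -0.39. With median centring 1 rose and 3 fell, with a median of -0.18, and 4 of 7 still measured fell without replicate 2 or without replicate 4. Of the markers not called, Upk3b read 0.00 and Calb2 0.24. The log2 of the summed signal of the 9 was between 17.1 and 17.2 in the wild type pools and between 16.5 and 16.7 in the hypomorph pools. Msln, the brightest, weighs most in this sum, with log2 signals between 16.5 and 16.8 in the wild type and between 15.8 and 16.1 in the hypomorph. Its spot on replicate 3 was marked as an outlier, which left it out of the ratio but not of these signals. The part of the mesothelial markers in the Lrp2 ratio was not tested. Of 8 kidney proximal tubule genes, 3 were measured and 1, Slc22a8, fell. Slc34a1, Slc22a6, Slc5a12, Umod and Kap were not well above background in either genotype on at least 3 arrays. Of 8 thyroid genes 2 were measured, of which Duox2 rose, and Slc5a5, Tshr, Pax8, Duoxa2 and Foxe1 were among those not well above background.

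Liver genes were measured for 5 of 8, with 1 lower, Ahsg. Heart muscle genes were measured for 8 of 8, with 1 lower, Tnni3, and a log2 summed signal between 16.8 and 17.6 in the wild type and between 16.7 and 17.2 in the hypomorph. Myh6, Nppa, Tnnt2, Actc1 and Myl4 lay above 0 in replicates 1 and 2 and below 0 in replicates 3 and 4. Tnni3 and Myl7 lay below 0 wherever they had a value, and Myh7 lay above 0 in replicate 4 only. Of 8 skeletal muscle genes 2 rose and 1 fell, the latter not without replicate 2, 3 or 4, and of 5 measured parathyroid and thymus genes 2 rose. With median centring none of the 5 rose and 2 fell, and without replicate 2 or 3 none was called. Of 7 measured neural genes none was called (limma), against 1 higher and 3 lower with median centring. The calls of the liver and thyroid genes were also lost without replicate 2 or 3, and that of the heart gene without replicate 3.

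Among the signalling receptors of the family, Lrp4 was read by 2 probes of very different brightness. The brighter, A_52_P635078 (chromosome 2, 91314514 to 91314573, mm8), had log2 ratios of -0.31, -0.34, -0.33 and -0.45, with a mean of -0.36 ± 0.06 (n = 4), which is 1.28-fold lower. A_51_P195756, 35247 bases away and designed from a cDNA clone, had a mean of -0.35 ± 0.16. With the processed signals this dim probe read -0.73 and the brighter one -0.30, and with plain background subtraction -0.62 and -0.35. Hypomorph and wild type pools did not overlap for either probe. Lrp5, a WNT co-receptor read on chromosome 19 from 3584870 to 3584930, had log2 ratios of -0.08, -0.26, -0.33 and -0.43, with a mean of -0.28 ± 0.15, and its pools overlapped. Lrp6, the other WNT co-receptor, read on chromosome 6 from 134416031 to 134416090, had values of 0.17, 0.03, 0.10 and 0.02, with a mean of 0.08 ± 0.07, and its pools overlapped as well. Lrp5 lay below 0 and Lrp6 above 0 on each of the 4 arrays.

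Vldlr, a receptor for triglyceride-rich lipoproteins and reelin, was read by 2 bright probes. A_51_P278334 (chromosome 19, 27316649 to 27316708, mm8) had log2 ratios of -0.36, -0.40, -0.33 and -0.17, with a mean of -0.31 ± 0.10 (n = 4). A_51_P500044, 4327 bases away and designed from a cDNA clone, had a mean of -0.32 ± 0.11. For both probes the hypomorph pools lay below the wild type pools. Lrp8, the other reelin receptor, was dim, and its 3 probes lie on chromosome 4 between 107370241 and 107374441. The brightest, A_51_P445765, read -0.03, 0.12, 0.15 and 0.18, with a mean of 0.11 ± 0.09 (n = 4). A_51_P145041 read 0.22, 0.17, 0.12 and 0.11, with a mean of 0.16 ± 0.05, and A_52_P279687 had a mean of 0.10 ± 0.09. The pools overlapped for each probe, and A_51_P145041 was well above background in 2 wild type and 3 hypomorph pools. With the processed signals they read 0.36, 0.55 and 0.31, and with median centring they turned to values between -0.09 and -0.04.

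Lrp1, a large endocytic receptor for protease complexes, had the steadiest ratio by its brighter probe only. A_51_P193794 (chromosome 10, 126941466 to 126941525, mm8) read -0.28, -0.29, -0.26 and -0.25, with a mean of -0.27 ± 0.02 (n = 4), although the signals of the pools overlapped, since both genotypes were dimmer on arrays 1 and 2. Its other probe, A_52_P202045, 49224 bases away and designed from a cDNA clone, read -0.54 on array 1 and -0.13, -0.09 and -0.08 on the others, with a mean of -0.21 ± 0.22, and -0.10 without replicate 1.

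Apart from the brightest Lrp2 probe and Cubn, the size and in part the direction of the ratios rest on the normalization. With median centring the median of all probes tested was 0.10. Vldlr then read 0.24 by its brighter probe and -0.01 by the other, and Lrp1 0.00 and 0.04. Lrp4 read -0.02 by its brighter probe and -0.46 by the dimmer, Lrp5 -0.03 and Lrp6 0.23. These brighter probes had a mean log2 brightness of 9.85 for Lrp6 and between 12.3 and 15.2 for the others. Under the same centring the tested Lrp2 probes read -1.03, -0.68 and -0.40 from the brightest to the dimmest, and Cubn read 0.81.

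**Figure D4:**
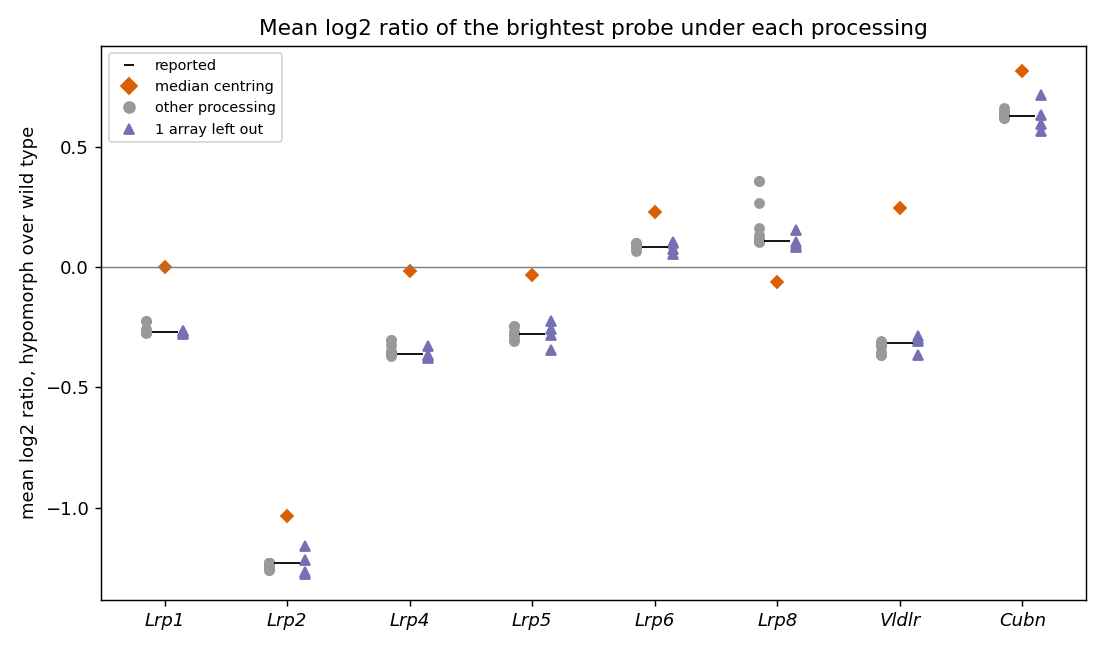
Mean log2 ratio of the brightest probe of each gene as reported, with median centring, with the other processing alternatives and with 1 array left out. Lrp2 stays below -1 and Cubn above 0.5 throughout, whereas Vldlr moves from -0.31 to 0.24 with median centring.

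Genes that work with these receptors were grouped in 6 lists, which hold 92 genes, 9 of them in more than 1 list. Of the 80 measured, 7 rose, 20 fell and 53 did not pass the test, so 33.8% were called, beside 26.6% of all genes by their brightest probe. By direction, 13.6% of all genes rose and 13% fell. The lists were chosen with earlier results of these data known, so nothing is read from the difference between these shares. Among the 20, Apob and Cyp26a1 passed the filter only through the wild type, and requiring both channels on 4 arrays left 18 lower. The median log2 ratio of the measured list genes was -0.06, against -0.00 for all genes. Without replicate 2, 1 rose and 9 fell, without replicate 3 these counts were 1 and 11, and without replicate 4 they were 4 and 13. With median centring 31 rose and 17 fell.

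Among the other genes of the LDL receptor family, 1 of 9 measured fell and none rose, with a median log2 ratio of 0.01. With median centring 5 rose and none fell, with a median of 0.20. The one called was Sorl1, a sorting receptor (-0.21 ± 0.07, n = 3, limma, adjusted p = 0.0462), which missed the threshold under several alternatives, with adjusted p up to 0.375.

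Of the chaperones, adaptors and regulators of these receptors, 3 of 15 measured fell and none rose, with a median of 0.02, against 5 higher and 2 lower with a median of -0.05 under median centring. The 3 were Mylip, a ubiquitin ligase that marks LDL receptors for breakdown (-0.48 ± 0.15, adjusted p = 0.00669), Pid1, an adaptor that binds LRP1 (-0.47 ± 0.07, adjusted p = 0.0027) and the engulfment adaptor Gulp1 (-0.44 ± 0.13, adjusted p = 0.00642), all by limma. The second probe of Mylip read -0.13 and that of Gulp1 -0.27. With median centring neither Mylip (adjusted p = 0.0833) nor Gulp1 (adjusted p = 0.172) passed. The endocytic adaptor Dab2, which binds the tail of megalin, did not pass (-0.16 ± 0.08, adjusted p = 0.0541).

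Ligands of megalin and cubilin counted 2 higher and 7 lower of 19 measured, with a median of -0.18. One of the 7, Apob, was well above background in 3 wild type and no hypomorph pools, so it passed the filter only through the wild type. Requiring both channels on 4 arrays left 6 lower of 16. Plat, the tissue plasminogen activator, fell (-0.79 ± 0.09, adjusted p = 0.00117), although its other probes read -0.38 and -0.34. Cblif, the intrinsic factor that carries vitamin B12, fell (-0.55 ± 0.07, adjusted p = 0.00182), and so did Lpl, lipoprotein lipase (-0.37 ± 0.08, adjusted p = 0.00592). With median centring Lpl read 0.01 (adjusted p = 0.89). The list had a median of 0.01 with median centring, with 6 higher and 8 lower.

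Ligands of Lrp1, Vldlr and Lrp8 counted 6 lower and none higher of 13 measured, with a median of -0.17, and Plat and Lpl belong to this list too. A2m, a protease inhibitor cleared through LRP1, fell the most (-0.98 ± 0.14, adjusted p = 0.00117), while its other probe read -0.30. With median centring 6 rose and 3 fell, and the median was 0.08.

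Partners of Lrp4, Lrp5 and Lrp6 counted 3 higher and 3 lower of 17 measured, with a median of -0.08, and 5 each way with a median of 0.08 under median centring. Without replicate 2 or 3, 1 rose and none fell. The R-spondin Rspo2, which strengthens WNT signalling, rose 1.59-fold (0.67 ± 0.07, adjusted p = 0.00135). The WNT inhibitor Dkk2 rose (0.22 ± 0.05, adjusted p = 0.0165), and Dkk3 (-0.23 ± 0.07, adjusted p = 0.018) and Kremen2, a receptor for Dickkopf proteins (-0.21 ± 0.10, adjusted p = 0.0346), fell. Dkk2 was lost without replicate 2 or 3, and Dkk3 without replicate 2, 3 or 4 and with the processed signals, and with median centring it read 0.00. Leaving out a single array, whichever it was, ended the call of Kremen2 (adjusted p from 0.0514 to 0.101).

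Genes of retinoid and vitamin carriage counted 2 higher and 4 lower of 15 measured, with a median of -0.02, against 5 higher and 3 lower under median centring. Without replicate 2 none rose and 1 fell, without replicate 3 none rose and 2 fell, and without replicate 4 these counts were 1 and 1. Rbp4, the retinol carrier that megalin takes up, fell (-0.43 ± 0.13, adjusted p = 0.00687), and so did Lmbrd1, a lysosomal protein of vitamin B12 export (-0.31 ± 0.03, n = 3, adjusted p = 0.0144), whose other probe read -0.07. The retinoid-degrading enzyme gene Cyp26a1 was well above background in 4 wild type pools and 1 hypomorph pool, so it passed the filter only through the wild type. It read -0.18 ± 0.05, against -0.89 with the processed signals, -0.46 with plain background subtraction and -0.39 with median centring, and it was not called without replicate 2, 3 or 4. With median centring Lmbrd1 read -0.03 (adjusted p = 0.77).

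**Figure D5:**
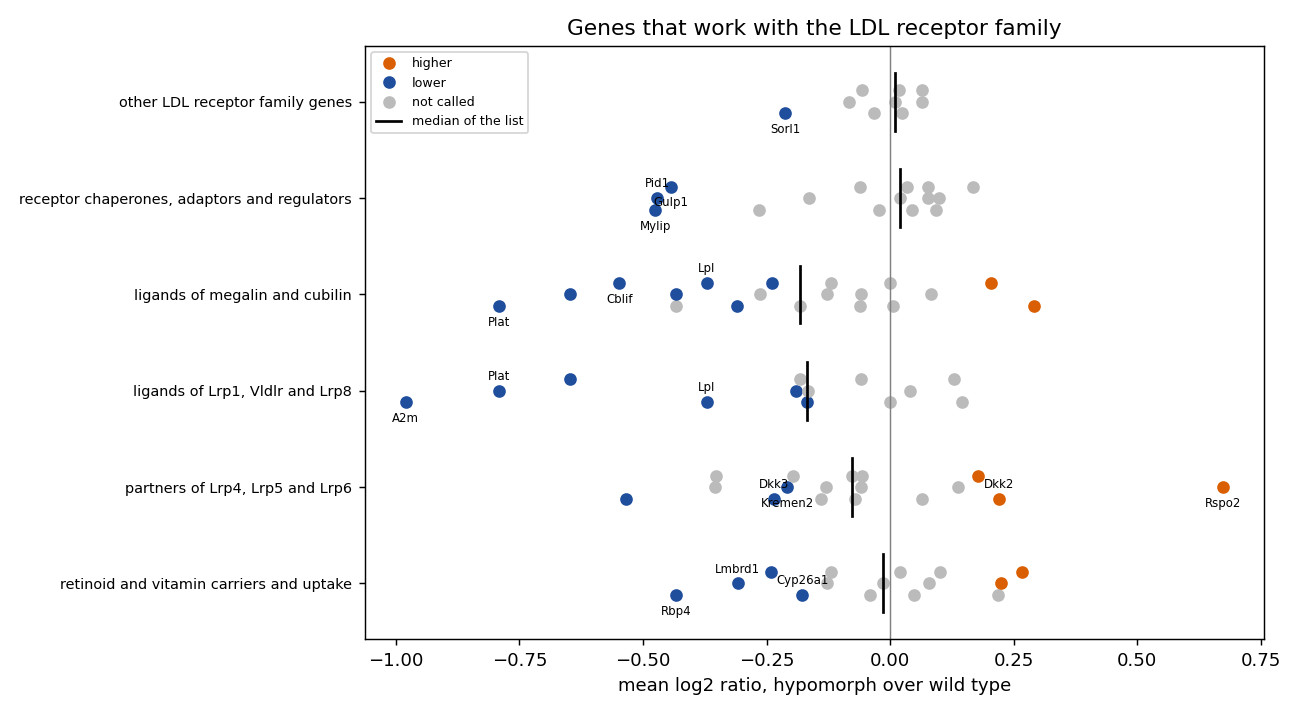
Mean log2 ratio of each measured gene in the 6 partner lists, coloured by the call of the test over all probes, with a bar at the median of each list. The medians lie between -0.18 and 0.02, and A2m and Plat are the lowest and Rspo2 the highest genes.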

How the data were processed

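RNA of 4 pools per genotype went onto 4 two-colour arrays, per the labels. The submitters' processing notes name Agilent Feature Extraction 9.5.1. Mean and background intensities were deposited as raw scanner values, and the processed intensities were background-subtracted and dye-normalized, per the file headers. A log10 column, deposited beside them, holds processed red over green and was not used. The deposited series table holds log2 values that matched log2 of processed red over green with a correlation of 1, so its direction is hypomorph over wild type. Its medians were -0.02, -0.00, -0.05 and -0.02.

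Signals were corrected with normexp (offset 50) and loess (span 0.3) in limma 3.58.1 under R 4.3.3. Control and outlier-marked spots were left out of the ratios and the tests. No family spot was marked or saturated. Probes were tested where 3 or more arrays had a value and 3 or more exceeded background clearly in either channel, and each mean log2 ratio was tested against 0 with Benjamini-Hochberg adjustment over 30008 probes. Log2 signals per pool, and the sums and overlaps drawn from them, are after loess and Aquantile, with outlier-marked spots kept. List genes are given by their brightest probe. Symbols come through RefSeq (GRCm38.p6) for 24375 probes, whether or not the name changed, and from the files for the rest. The members and lists were chosen with earlier results of these data known. Of each list, the called genes with the 4 smallest p were to be named, beside the 5 probes nearest to Lrp2, some of which are not reported here; Amn, Dab2, Fgf8 and the cell type markers named were added after their values were seen. The alternatives were other background corrections, normalizations, filters and variance models, separate channels, 1 probe per gene and each array left out. The test was also run on simulated data with few changed probes and no dye effect, which cannot give its false call rate on these arrays. Arrays shared 1 scan, and the number of arrays limits the precision.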

Additional observations from a re-analysis of the deposited data

Results flagged for a closer look

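Of the family probes and named genes, 2 had 1 array far from the other 3, by the gap to the nearest array as a share of the whole range. For the Lrp1 probe A_52_P202045 this share was 0.887, with replicate 1 the lowest, and for Rspo2 it was 0.945. Of 30 sets of 4 arrays looked at, chance gives such a gap in about 1 in 20.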

How the results depend on the processing

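Direction held for the brightest Lrp2 probe and for Cubn under each alternative run. Wherever measured, it also held for the other tested Lrp2 probes, both Lrp4 probes, Lrp5, Lrp6 and the dimmer Vldlr probe. With median centring, however, the brighter Lrp4 probe read -0.02, Lrp5 -0.03 and the dimmer Vldlr probe -0.01. The brightest Lrp2 probe read -1.03 with median centring, and between -1.28 and -1.16 without each array in turn. The range between the 3 Lrp2 probes was 0.51 with the processed signals and with the deposited series table, which repeats them, 0.76 with plain background subtraction and 0.63 with median centring. With median centring the log2 ratios of the Lrp1 probes were 0.0020 and 0.0380, that of the brighter Vldlr probe 0.24, those of the Lrp8 probes -0.0444, -0.0625 and -0.0872, that of Lpl 0.0142 and that of Dkk3 0.0018. The cause was not tested.

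Changed probes numbered 14830 with median centring and between 1605 and 7602 without each array in turn. Partner genes that rose numbered 31 with median centring, 11 with marked spots kept and between 1 and 7 without each array in turn. Those that fell numbered 17 with median centring and between 9 and 17 without each array in turn. The test on ratios within each array is itself paired by array, and separate channels with the array as a block gave 8574 changed probes. Dim probes, such as those of Lrp8, limit what can be said of their ratios.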
